A study of Mus musculus with 12 samples.

Results

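Astrocytes keep the fluid around synapses clear of transmitter and potassium and supply neurons with precursors. In the hippocampus they take up glutamate through plasma membrane transporters, turn it into glutamine, share ions and metabolites through gap junctions, and release proteins that shape synapses. Genes that serve these tasks in the unstressed cell are called homeostatic, in contrast to reactive genes such as Gfap, which rise after injury or inflammation. Embryonic hippocampal cultures made for neurons hold glial cells as well, so both kinds of transcript can be read from them.

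A set of 46 homeostatic astrocyte genes was followed here, out of 48709 genes counted. The members were given as a list of symbols and found by matching each symbol to its Ensembl gene, and all 46 had enough reads to be tested. RNA came from cultures of hippocampi of embryonic day 17 CD1 mouse embryos, with hippocampi of several embryos pooled per preparation. Control cultures received lipid nanoparticles with a negative control oligonucleotide and mimic cultures the same particles with a miR-148a-3p mimic, a synthetic RNA that adds to the cellular pool of this microRNA. Both were given at day 10 in vitro for 48 h together with ApoE4 protein, and cells were harvested at day 12. Each group had 6 samples, named here control 1 to 6 and mimic 1 to 6 after their labels. No label says whether the samples of a group came from separate preparations, so p-values measure the spread between these samples, which may be technical.

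Library totals lay between 20018234 and 37149112 counts, with control 1 and control 2 the shallowest, and the labels give no batch. The cultures are labelled as neurons. The 20 neuronal marker genes on a fixed list, from Rbfox3 to Dcx, were all detected and summed to between 11299 and 12211 counts per 1000000 counted reads (CPM) in control and between 11576 and 12010 CPM in mimic. The 46 astrocyte genes summed to between 9967 and 10982 CPM in control and between 12929 and 13511 CPM in mimic, so transcripts of both neurons and astrocytes were abundant. In bulk RNA, more cells of a type and more RNA per cell cannot be told apart.

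The sequences that define the comparison are those of the oligonucleotides. A microRNA finds transcripts mainly through its seed, bases 2 to 8, set in capitals below. The mimic carries the mature microRNA as listed by RefSeq and in the study's oligonucleotide list, which also gives the control. The listed control was assumed to be the one used for these samples, although the submitters elsewhere name a siRNA.
miR-148a-3p mimic: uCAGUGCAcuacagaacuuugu
negative control: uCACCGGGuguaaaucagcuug

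In the longest 3 prime untranslated region (UTR) of each gene, a match to the mimic seed was TGCACTG (bases 2 to 8) or GCACTGA (bases 2 to 7 followed by A), searched on the transcript strand only. Where they overlap they form an 8-base site. Of the 46 members 10 held a match, which is 21.7%, and 21.9% of the 15072 tested genes with a 3 prime UTR did. None of the 10 held the 8-base site. Aqp4 held 2 matches and the others 1 each. Matches of 8 members are shown 5′ to 3′ with 11 flanking bases on each side (mm10, GENCODE M21, transcript strand), capitals marking the match, because they are the places where the mimic could pair with these transcripts. Those of Aqp4 and Slc14a1 were left out for their position in the genome, not for their values.
Slc1a2: ttacctttttgTGCACTGtctaagtagaa
Cbs: agcggttaagaGCACTGAccgttagagat
Acsbg1: ttcagggcagaGCACTGAcatctccaatg
Sox9: tgcagtgaggaGCACTGAgtcctttgcaa
Nfib: gagtggatcccTGCACTGgggggaataac
Fgfr3: ccttgggaacaTGCACTGctgtagagtaa
Mfge8: ctcttgaccctTGCACTGgagcctcagtt
Chrdl1: tatggtataagTGCACTGtggaaaatttt

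The negative control has its own seed matches, CCCGGTG and CCGGTGA, held by 4.42% of the tested genes with a 3 prime UTR and by 2 members (4.35%). Slc1a3 held one of them and Paqr6 an 8-base site that joins both.
Slc1a3: aatgctgtttaCCCGGTGtgatatttttt
Paqr6: ttggatgtgtcCCCGGTGAgataatggttg

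Most homeostatic astrocyte genes were more abundant in the mimic cultures. Of the 46 members 28 were higher (60.9%) and 5 lower (10.9%) at an edgeR adjusted p under 0.05, where Benjamini-Hochberg adjustment ran over all 18847 tested genes. Of all tested genes, 11.5% were called higher, 10.7% lower and 22.2% in either direction. The share of members called lower was thus near the background, and the share called higher was not. The median log2 fold change was 0.30 over the members and -0.012 over all tested genes. In 24 members all 6 mimic libraries lay above all 6 control libraries and in 2 below, together 56.5% of the members, while 13.3% of all tested genes were separated in this way, 7.43% above and 5.83% below. The same shares of all tested genes stand behind the counts by role that follow. In roles of 3 to 11 genes, counts of 0, 1 or 2 genes lower are near the background and are given to account for each member. Changes were moderate in size. Against a minimum fold of 1.2, edgeR called 18 members higher and 3 lower, and 3.62% and 1.87% of all tested genes. Slc1a2, Atp1b2, Ttyh1, Gja1, Aldh1l1, Ppp1r3c, Dbi, Sparcl1, Gpc4 and Lcat were no longer called higher, nor Daam2 and Chrdl1 lower. Slc7a10, Gjb6 and Mfge8 passed a 2-fold change as well as the test, which is 3 of 46 members or 6.52%, against 1.32% of all tested genes.

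**Figure D1:**
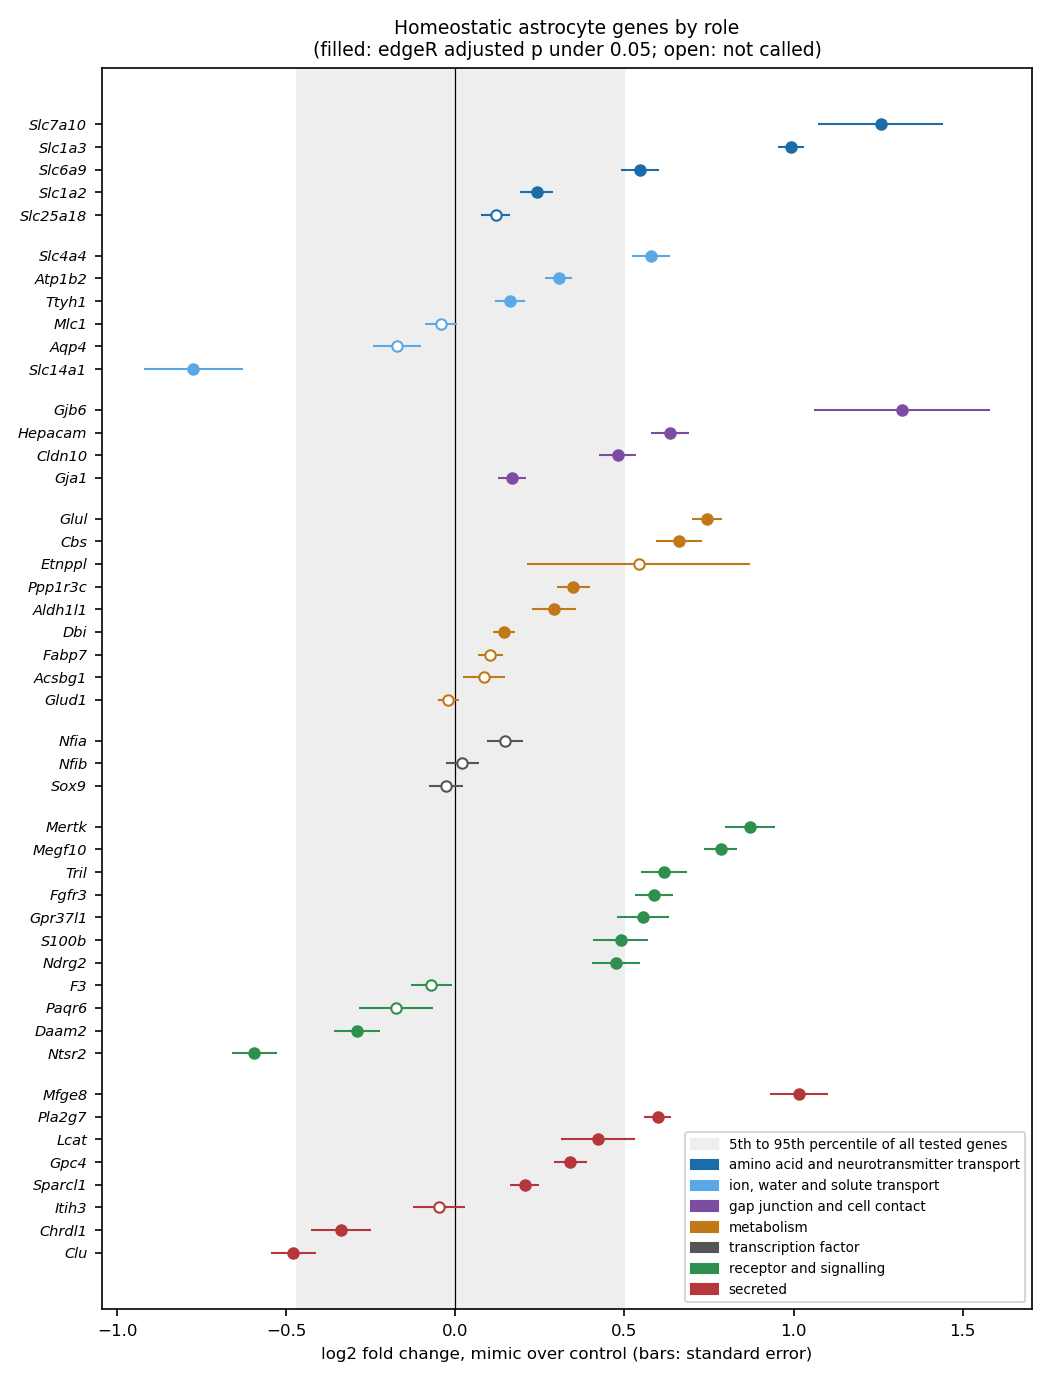
Log2 fold change (mimic over control, x axis) of each of the 46 members (rows), grouped and coloured by role, with bars for the standard error, filled points for an edgeR adjusted p under 0.05 and a grey band from the 5th to the 95th percentile of all tested genes (-0.47 to 0.50). Most points lie to the right of 0, the 3 transcription factors lie close to 0, and Slc14a1, Ntsr2 and Clu lie below the band.

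The shift was present in each mimic library. The members took between 1.02% and 1.09% of all counts in the 6 control libraries and between 1.29% and 1.36% in the 6 mimic libraries, so the ranges did not overlap. Measured gene by gene against the control mean on the scale of log2(CPM + 0.5), the median member lay between 0.23 and 0.30 in the mimic libraries. In the control libraries it lay between -0.038 and 0.023, except in control 1, where it was 0.14. By this median control 1, the library with the fewest counts, thus lay on the side of the mimic libraries. This did not hold in each member, since control 1 was the lowest control library in Slc1a3 with 835 CPM. Without control 1, 31 members were called higher and 6 lower, while the shares of all tested genes grew too, to 14.3% and 13%.

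**Figure D2:**
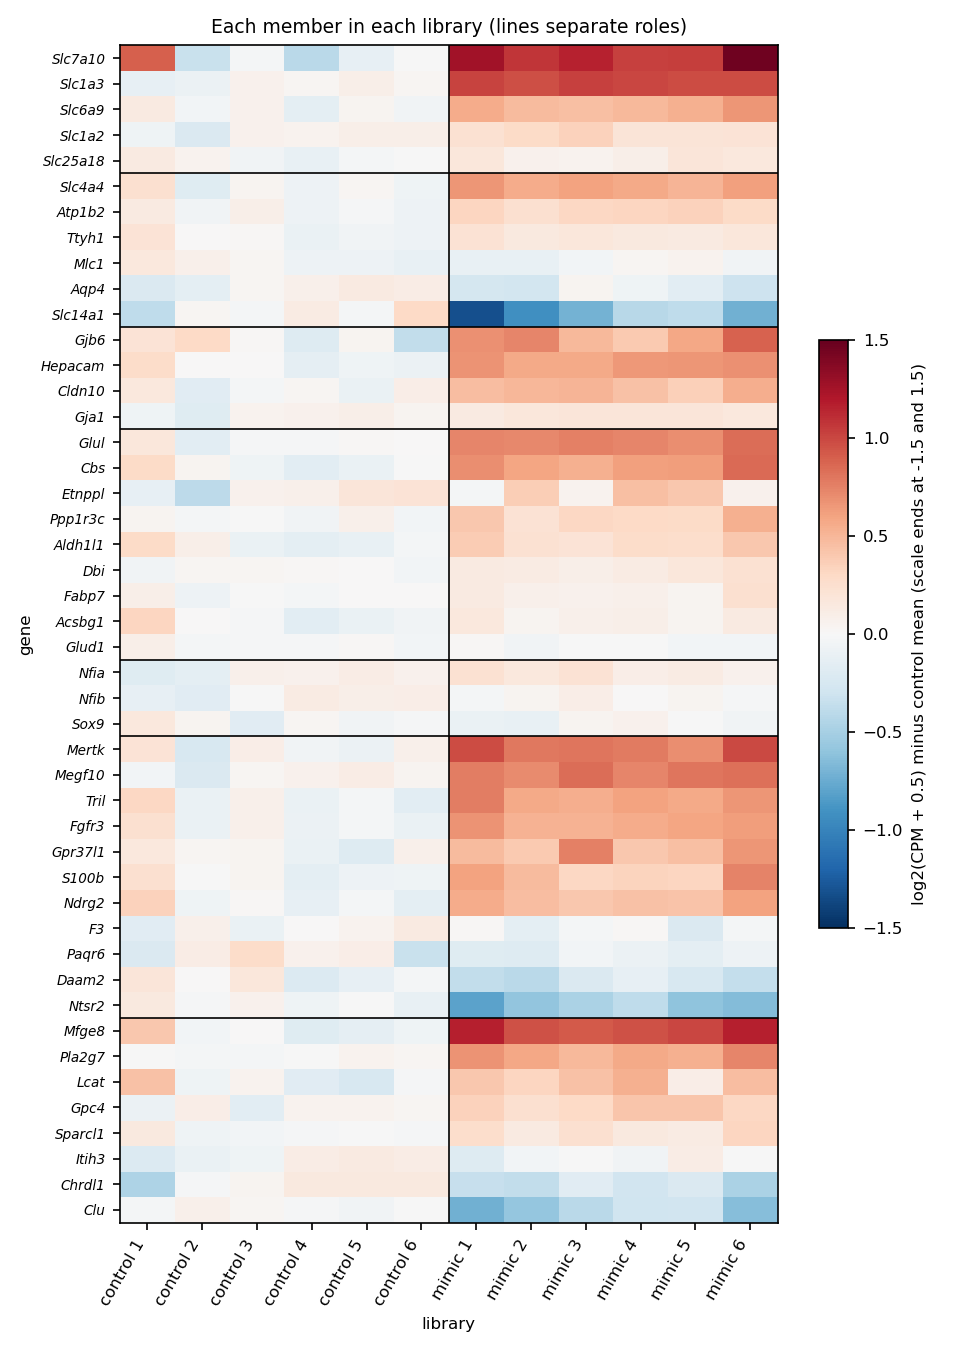
Each member (rows, lines separate the roles) in each of the 12 libraries (columns), coloured by log2(CPM + 0.5) minus the mean of the 6 control libraries, red for higher and blue for lower, with the colour scale ending at -1.5 and 1.5. Mimic columns are red in most rows, the median member lying between 0.23 and 0.30, and control 1 is pale red in many rows with a median of 0.14.

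Levels differed widely between members. Per kilobase of exons, the highest mean levels in control were 614 CPM per kb for Fabp7, the brain fatty acid binding protein that radial glia also carry, 347 for Sparcl1, 302 for Dbi and 193 for Mlc1. Etnppl was lowest with 0.0265 CPM per kb, below Gjb6 with 0.11 and Paqr6 with 1.23. Etnppl had 8.5 counts per library on average and Gjb6 15.1, so that counting error weighs on both. All other members averaged more than 85 counts.

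Uptake of amino acid transmitters was the first role examined. Slc1a3 encodes GLAST, a plasma membrane glutamate transporter of astrocytes and radial glia (ENSMUSG00000005360, mm10 chromosome 15, 8634124 to 8710764, reverse strand). The lowest, median and highest values were 835, 931 and 966 CPM in control and 1777, 1815 and 1848 CPM in mimic. The groups were far apart and the mimic libraries lay within a narrow range. Means were 913 ± 53.8 and 1815 ± 27.6 CPM (SD, n = 6 each), and the log2 fold change was 0.99 (edgeR adjusted p = 4.23e-11, SE 0.038).

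Slc1a2 encodes GLT-1, the main glutamate transporter of the mature forebrain (ENSMUSG00000005089, chromosome 2, 102658659 to 102790784, forward strand). It ran from 1451 over a median of 1757 to 1795 CPM in control and from 1930 over 1964 to 2150 CPM in mimic. Again no mimic library reached down to a control library, but the gap was small. The log2 fold change was 0.24 (edgeR adjusted p = 0.00174, SE 0.050). Its 3 prime UTR carries the mimic site printed above. Both transporters share a family and a substrate, and their ratio can be read within each library without any scaling. The log2 ratio of Slc1a3 to Slc1a2 counts went from -0.89 ± 0.070 in control to -0.14 ± 0.059 in mimic (SD, n = 6 each), and the groups did not overlap. The difference was 0.75. This ratio and 5 others are given as descriptions, since they were chosen after the values of the genes had been seen. Per kilobase of exons, the mean level of Slc1a3 was below that of Slc1a2 in control (107 and 129 CPM per kb) and above it in mimic (213 and 152 CPM per kb).

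The 3 remaining transporters of this role carry glycine, neutral amino acids or mitochondrial glutamate. Slc6a9, the glycine transporter GlyT1, had 10.6, 11.8 and 13.0 CPM as the lowest, median and highest control value and 16.3, 16.97 and 18.9 CPM in mimic (log2 fold change 0.55, edgeR adjusted p = 1.86e-06, SE 0.057). Slc7a10, the exchanger Asc-1 for serine, glycine and alanine, had 2.29, 3.02 and 6.36 CPM in control and 7.04, 7.47 and 9.67 CPM in mimic. Its groups were apart, although control 1 with 6.36 CPM lay close to the mimic libraries and far from the next control library. The log2 fold change was 1.26 (edgeR adjusted p = 0.000123, SE 0.18), and without control 1 it was 1.48. Exons of Slc7a10 share 17.9% of their length with Lrp3 on the other strand, which has more counts (2871 on average against 167) and a log2 fold change of 0.012. For Slc6a9 the overlap with Ccdc24 is 27.8% (20.9 counts on average against 434.5, log2 fold change of Ccdc24 0.093). Overlaps with other genes also cover 15.98% of the exons of Tril, 13.9% of those of Fgfr3, 11.1% of those of Aldh1l1 and 10.98% of those of Pla2g7. The library kit does not mark strand, and the strand setting of the counting is not stated. How reads from these overlaps were assigned is thus not known. Slc25a18, a mitochondrial glutamate carrier, had a log2 fold change of 0.12 and did not pass the test (edgeR adjusted p = 0.0616, SE 0.044). It passed without control 1 (0.15, edgeR adjusted p = 0.00582). In sum 4 of 5 genes of this role rose, against 11.5% of all tested genes.

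Of the 6 genes for ions, water and other solutes 3 were higher and 1 lower, against 11.5% and 10.7% of all tested genes. Slc4a4 encodes the sodium bicarbonate cotransporter NBCe1, which sets the pH of astrocytes. It had 168, 189 and 225 CPM as lowest, median and highest in control and 271, 285 and 301 CPM in mimic, without overlap (log2 fold change 0.58, edgeR adjusted p = 6.54e-07, SE 0.055). Atp1b2, the glial beta subunit of the sodium pump, went from 368, 379 and 426 CPM to 460, 485 and 494 CPM, also without overlap (log2 fold change 0.31, edgeR adjusted p = 2.29e-05, SE 0.040). Ttyh1, a membrane protein of the tweety family of anion channels, had 292, 310 and 361 CPM in control and 346, 350 and 365 CPM in mimic. Only control 1 lay among the mimic libraries in this gene, and the log2 fold change was 0.16 (edgeR adjusted p = 0.0138, SE 0.044).

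Aqp4 encodes the water channel of astrocytic endfeet (ENSMUSG00000024411, chromosome 18, 15389496 to 15410982, reverse strand). Its values were 293, 352 and 374 CPM in control and 273, 294 and 351 CPM in mimic. The groups overlapped broadly, with the 2 shallowest control libraries at the bottom of their group. The log2 fold change was -0.17 (edgeR adjusted p = 0.0942, SE 0.070). The call depended on the fit and on single libraries. With the replicate number as a block the value was -0.17 with an edgeR adjusted p of 0.0451, without control 1 it was -0.21 with an edgeR adjusted p of 0.0406, and without mimic 3 it was -0.22 with an edgeR adjusted p of 0.0281. Slc14a1, a urea transporter, decreased from 7.68, 10.1 and 12.6 CPM to 3.77, 5.99 and 7.69 CPM (log2 fold change -0.77, edgeR adjusted p = 0.00102, SE 0.15). The groups touched, since mimic 5 with 7.69 CPM lay level with control 1. This was the strongest decrease among the members. Mlc1, a membrane protein of perivascular endfeet, had a log2 fold change of -0.043 (edgeR adjusted p = 0.584, SE 0.047).

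**Figure D3:**
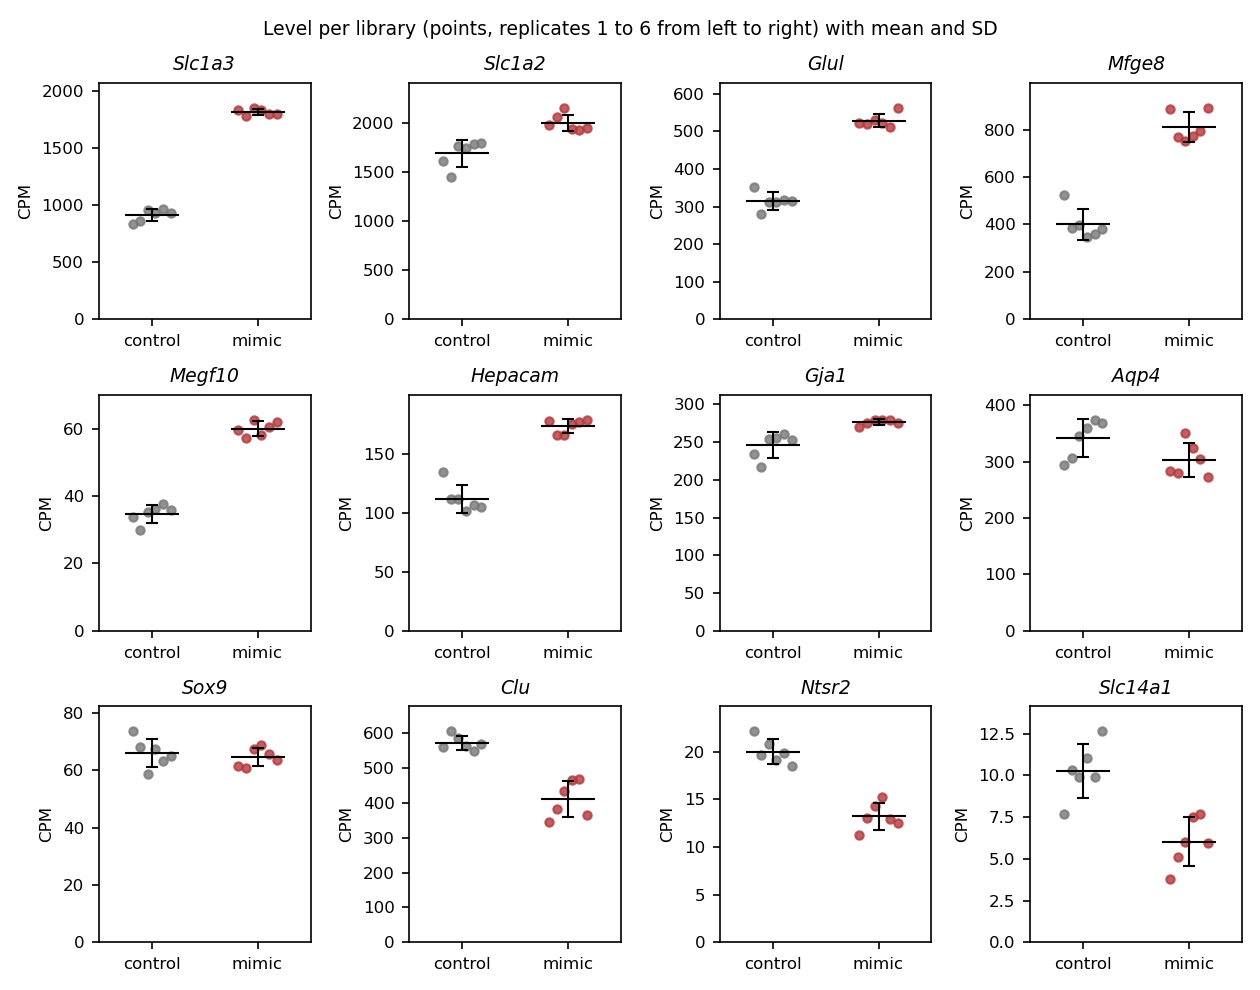
CPM (y axis, from 0) of 12 members in each library (points, control grey and mimic red, replicates 1 to 6 from left to right in each group) with the mean and SD of each group (n = 6). Slc1a3 lies between 835 and 966 CPM in control and between 1777 and 1848 CPM in mimic, Aqp4 and Sox9 overlap between the groups, and Clu and Ntsr2 are lower in all mimic libraries.

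All 4 genes of gap junctions and cell contacts rose, each without overlap of the groups, although Gja1 did not pass a minimum fold of 1.2. Of all tested genes 7.43% had the mimic libraries above in this way. Gja1 encodes connexin 43, the main gap junction protein of astrocytes (ENSMUSG00000050953, chromosome 10, 56377330 to 56402513, forward strand). It had 217, 254 and 261 CPM as lowest, median and highest in control and 270, 277 and 279 CPM in mimic, a small change of 0.17 on the log2 scale (edgeR adjusted p = 0.00722, SE 0.042). Gjb6, the second astrocytic connexin, connexin 30, had 0.107, 0.301 and 0.467 CPM in control and 0.532, 0.718 and 0.949 CPM in mimic. Its log2 fold change of 1.32 (edgeR adjusted p = 0.00116, SE 0.26) was the largest among the members in this fit. That of Slc7a10 (1.26) lay within the SE, so the order of these genes is not settled. The mean level of Gjb6 per kilobase of exons, 0.11 CPM per kb in control and 0.27 in mimic, stayed far below that of Gja1 (23.98 and 26.9 CPM per kb). The log2 ratio of Gjb6 to Gja1 counts differed by 1.25 between the groups, going from -9.86 ± 0.852 to -8.61 ± 0.317 (SD, n = 6 each), with an overlap of the groups. Hepacam encodes GlialCAM, an adhesion protein that binds Mlc1. Its values were 101, 109 and 134 CPM in control, with control 1 highest, and 165, 176 and 179 CPM in mimic (log2 fold change 0.63, edgeR adjusted p = 2.65e-07, SE 0.056). The claudin gene Cldn10 went from 17.6, 19.8 and 22.2 CPM to 25.6, 27.9 and 29.2 CPM (log2 fold change 0.48, edgeR adjusted p = 4.84e-06, SE 0.055). The log2 ratio of Hepacam to its partner Mlc1, also chosen after their values were seen, went from -2.28 ± 0.068 to -1.60 ± 0.072 (SD, n = 6 each), a difference of 0.68.

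Among 9 metabolic genes 5 rose and the other 4 were not called. Glul encodes glutamine synthetase, which makes glutamine from the glutamate that astrocytes take up (ENSMUSG00000026473, chromosome 1, 153899944 to 153909723, forward strand). It had 281, 314 and 353 CPM as lowest, median and highest in control and 512, 523 and 561 CPM in mimic. The groups were widely separated, and means were 315 ± 23.1 and 528 ± 17.3 CPM (SD, n = 6 each; log2 fold change 0.74, edgeR adjusted p = 3.20e-09, SE 0.045). Of its 50-base windows 11.9% also occur in a pseudogene, Glns-ps1, which had 3.42 counts per library. Glud1, the glutamate dehydrogenase that leads glutamate into the citric acid cycle instead, had a log2 fold change of -0.021 (edgeR adjusted p = 0.694, SE 0.031). The log2 ratio of Glul to Glud1 went from 0.58 ± 0.074 to 1.35 ± 0.057 (SD, n = 6 each), a difference of 0.77 without overlap.

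Cbs, the cystathionine beta-synthase of sulfur amino acid metabolism, had 26.8, 29.3 and 36.9 CPM in control and 43.8, 46.4 and 54.3 CPM in mimic (log2 fold change 0.66, edgeR adjusted p = 1.85e-06, SE 0.069). Ppp1r3c, which targets a phosphatase to glycogen, went from 44.4, 45.5 and 48.5 CPM to 53.6, 57.0 and 66.4 CPM (log2 fold change 0.35, edgeR adjusted p = 3.98e-05, SE 0.048). Neither gene overlapped between the groups. Aldh1l1, the folate enzyme that serves as a pan-astrocyte marker, had 94.6, 100 and 128 CPM in control and 121, 126 and 139 CPM in mimic (log2 fold change 0.29, edgeR adjusted p = 0.00305, SE 0.064). In this gene control 1 alone lay among the mimic libraries. Dbi, the acyl-CoA binding protein, went from 415 to 439 CPM in control to 458 to 502 CPM in mimic, without overlap (log2 fold change 0.14, edgeR adjusted p = 0.00295, SE 0.032). In Fabp7 the control libraries ran from 730 to 816 CPM and the mimic libraries from 787 to 903 CPM. Fabp7 (log2 fold change 0.10), the acyl-CoA synthetase gene Acsbg1 (0.085) and the phosphoethanolamine lyase gene Etnppl (0.54, SE 0.33) did not pass, with edgeR adjusted p-values of 0.0617, 0.378 and 0.281. Without control 1, Fabp7 and Acsbg1 passed at 0.12 and 0.15 (edgeR adjusted p = 0.00887 and 0.00219).

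None of the 3 transcription factors was called, where 22.2% of all tested genes were. Sox9, which specifies and marks astrocytes, had 58.7, 66.2 and 73.6 CPM in control and 60.9, 64.6 and 68.8 CPM in mimic (log2 fold change -0.028, edgeR adjusted p = 0.760, SE 0.050). The mimic values lay within the range of the control values. Nfia and Nfib, nuclear factor I proteins that drive the start of gliogenesis and are also made by neurons, had log2 fold changes of 0.15 and 0.021 (SE 0.052 and 0.049, edgeR adjusted p = 0.0537 and 0.822). Nfia lay close to the threshold and passed in 5 of 20 alternatives, such as the fit without control 5 (0.17, edgeR adjusted p = 0.0324). Within libraries, the log2 ratio of Nfia to Nfib went from -1.58 ± 0.055 to -1.46 ± 0.065 (SD, n = 6 each), a small difference of 0.13.

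Receptors and signalling proteins were the largest role, with 7 of 11 genes higher and 2 lower, against 11.5% and 10.7% of all tested genes. Mertk and Megf10 are engulfment receptors through which astrocytes remove synapses. Mertk had 8.71, 10.5 and 12.0 CPM as lowest, median and highest in control and 17.1, 18.4 and 21.2 CPM in mimic (log2 fold change 0.87, edgeR adjusted p = 1.87e-07, SE 0.074). Megf10 (ENSMUSG00000024593, chromosome 18, 57133090 to 57297467, forward strand) had 29.8, 35.6 and 37.6 CPM in control and 57.2, 60.01 and 62.6 CPM in mimic (log2 fold change 0.78, edgeR adjusted p = 4.68e-09, SE 0.049). Both rose without overlap of the groups. Their log2 ratio differed by -0.082 between the groups, Megf10 to Mertk (1.74 ± 0.158 in control and 1.66 ± 0.121 in mimic, SD, n = 6 each), less than the spread within either group.

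Tril, a partner of Toll-like receptor 4, went from 71.4, 76.5 and 99.1 CPM to 116, 120 and 136 CPM (log2 fold change 0.62, edgeR adjusted p = 3.86e-06, SE 0.068). S100b, the calcium binding protein used as an astrocyte marker, went from 13.0, 14.2 and 17.2 CPM to 18.2, 19.3 and 24.6 CPM (log2 fold change 0.49, edgeR adjusted p = 0.000286, SE 0.082). The groups did not overlap in either gene. Fgfr3, a fibroblast growth factor receptor, Gpr37l1, a receptor for prosaposin peptides, and Ndrg2, an astrocytic protein of the N-myc downstream regulated family, rose by 0.59, 0.55 and 0.48 on the log2 scale (SE 0.055, 0.077 and 0.070), again without overlap. Fgfr3 ran from 53.4 to 68.1 CPM in control and from 82.9 to 92.3 CPM in mimic. Gpr37l1 ran from 8.75 to 11.3 CPM and from 13.4 to 17.3 CPM. Ndrg2 ran from 390 to 549 CPM, with control 1 highest, and from 571 to 657 CPM.

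Ntsr2, the neurotensin receptor of astrocytes, moved the other way (ENSMUSG00000020591, chromosome 12, 16653382 to 16660227, forward strand). It had 18.5, 19.7 and 22.1 CPM in control and 11.3, 13.0 and 15.2 CPM in mimic, with all mimic libraries below all control libraries (log2 fold change -0.59, edgeR adjusted p = 4.33e-06, SE 0.067). Daam2, a formin of the Wnt pathway, was lower by a smaller amount with overlap of the groups (-0.29, edgeR adjusted p = 0.00486, SE 0.068). F3, tissue factor, and the progestin receptor family gene Paqr6 had log2 fold changes of -0.071 and -0.18 and did not pass (edgeR adjusted p = 0.472 and 0.290).

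Of the 8 secreted or shed proteins 5 rose and 2 fell, against the same shares. Mfge8 links dying cells to the integrins of phagocytes (ENSMUSG00000030605, chromosome 7, 79133768 to 79149060, reverse strand). It had 348, 384 and 526 CPM as lowest, median and highest in control and 751, 782 and 889 CPM in mimic. Control 1 with 526 CPM stood above the other control libraries, and the groups still did not come near each other. Means were 400 ± 64.3 and 810 ± 62.6 CPM (SD, n = 6 each; log2 fold change 1.02, edgeR adjusted p = 4.31e-07, SE 0.086). Pla2g7, which degrades platelet activating factor, went from 255, 259 and 270 CPM to 364, 388 and 433 CPM without overlap (log2 fold change 0.60, edgeR adjusted p = 1.27e-08, SE 0.041). The gene that overlaps Pla2g7, 1700071M16Rik, rose as well (log2 fold change 0.78, edgeR adjusted p = 9.84e-06), with 142.1 counts on average against 9828 for Pla2g7. Lcat, which esterifies cholesterol on lipoproteins, had 3.92, 4.54 and 6.56 CPM in control and 5.06, 6.47 and 7.04 CPM in mimic, with overlap (log2 fold change 0.42, edgeR adjusted p = 0.00968, SE 0.11).

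Clu encodes clusterin, a lipoprotein and chaperone secreted by astrocytes (ENSMUSG00000022037, chromosome 14, 65968483 to 65981547, forward strand). It fell from 549, 565 and 604 CPM to 346, 407 and 469 CPM (log2 fold change -0.48, edgeR adjusted p = 5.36e-05, SE 0.067). All mimic libraries were below all control libraries, and they varied more (410 ± 52.2 CPM against 571 ± 19.7 CPM, SD, n = 6 each). Of the proteins that act on synapses, Gpc4, a glypican that recruits glutamate receptors, and Sparcl1, called hevin, rose by 0.34 and 0.21 on the log2 scale (edgeR adjusted p = 4.55e-05 and 0.00215). Gpc4 ran from 50.3 to 60.1 CPM in control and from 66.2 to 75.2 CPM in mimic. Sparcl1 ran from 975 to 1132 CPM in control and from 1113 to 1275 CPM in mimic, overlapping only through control 1. Chrdl1, which promotes the maturation of synapses, was lower (-0.34, edgeR adjusted p = 0.0101, SE 0.088), with control 1 at 14.4 CPM below the other control libraries and as low as the lowest mimic library. Itih3, a hyaluronan binding protein, had a log2 fold change of -0.049 (edgeR adjusted p = 0.718).

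Of the 10 members with a mimic seed site 4 were called higher (Slc1a2, Cbs, Fgfr3 and Mfge8), 2 lower (Slc14a1 and Chrdl1) and 4 not called (Aqp4, Acsbg1, Sox9 and Nfib), with a median log2 fold change of 0.053. Of the 36 members without a site 24 were higher, 3 lower and 9 not called, with a median of 0.34. Among all tested genes with a 3 prime UTR, 11.7% of the 3304 with a site were higher and 19.2% lower (median -0.035), and 14.1% of the 11768 without a site were higher and 10.7% lower (median 0.0013). The 3 lower members without a site were Ntsr2, Daam2 and Clu. A match gives only the presence of these letters in the UTR. Slc1a3, with the site for the negative control, was higher in mimic, and Paqr6, with an 8-base site for it, was not called.

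**Figure D4:**
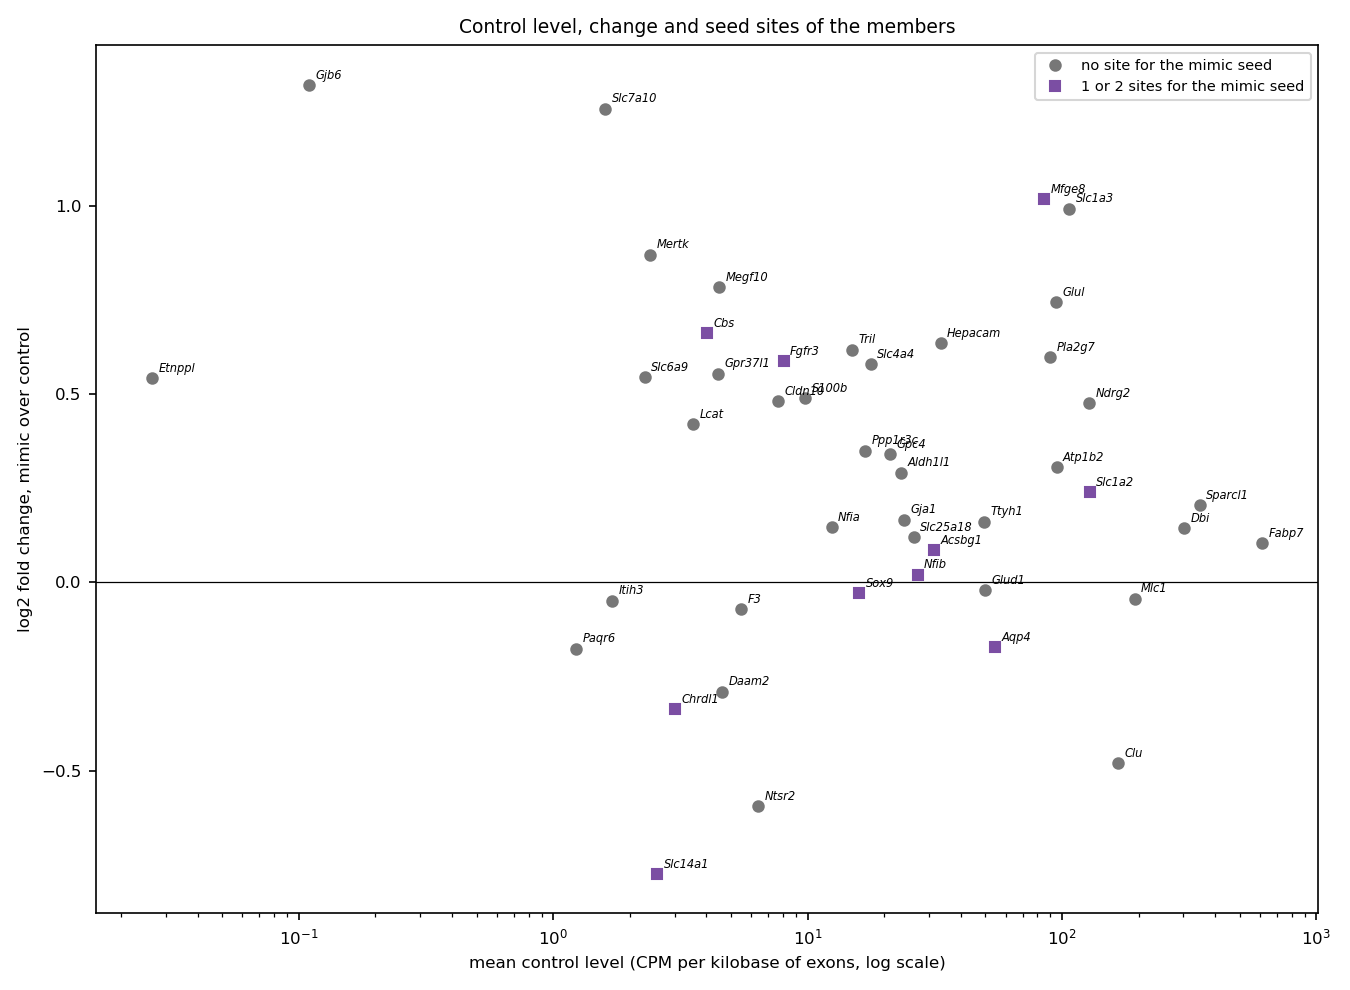
Log2 fold change (mimic over control, y axis) of the 46 members against their mean control level (CPM per kilobase of exons, log x axis), with squares for the 10 genes whose 3 prime UTR matches the mimic seed and circles for the 36 without. Squares lie on both sides of 0, from Slc14a1 at -0.77 to Mfge8 at 1.02, and changes of both signs occur at low and high levels.

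A second list of 40 astrocyte genes that are not among the members was examined in the same fit. Like the members, this list and those that follow were chosen with earlier results of these data known. They are therefore no independent check. Of the 40 genes 22 were higher and 7 lower, with a median log2 fold change of 0.25. Their sums overlapped between the groups, with 11484 to 13849 CPM in control and 12766 to 13665 CPM in mimic. In 15 of the 40 all mimic libraries lay above all control libraries and in 6 below, against 7.43% and 5.83% of all tested genes, and 11.5% and 10.7% of all tested genes were called higher and lower. The largest increases among those with at least 100 counts were those of Dio2, the enzyme that activates thyroid hormone (1.83), and the protease gene Htra1 (1.08). Gfap, the intermediate filament of astrocytes, had a log2 fold change of -0.90 and fell from 1362 ± 70.2 to 731 ± 107 CPM (SD, n = 6 each, edgeR adjusted p = 5.52e-07). Reactive astrocyte genes, a list of 33 that includes Gfap and none of the members, mostly went down, with 22 of 32 tested genes lower and 4 higher and a median of -0.58. The most marked decreases among those with at least 100 counts were Steap4, a metalloreductase (-2.00), and Gbp2, an interferon-induced GTPase (-1.57). Against the 10.7% of all tested genes called lower, homeostatic genes had 10.9% called lower and reactive genes 22 of 32.

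**Figure D5:**
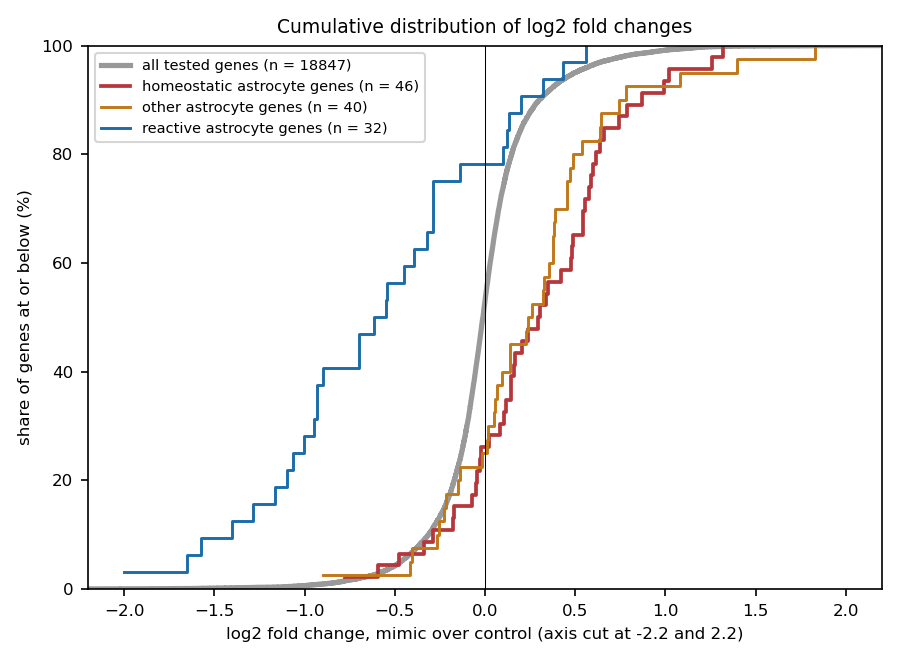
Share of genes (y axis, %) at or below a log2 fold change (mimic over control, x axis) for all 18847 tested genes, the 46 homeostatic astrocyte genes, 40 other astrocyte genes and 32 tested reactive astrocyte genes. Medians are -0.012, 0.30, 0.25 and -0.58, so at the median both astrocyte curves lie to the right of all genes and the reactive curve to the left.

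Lists of markers of other cells and of cell division were read beside the same shares of all tested genes, 11.5% called higher and 10.7% lower. The part of any of them in the astrocyte result was not tested. No marker of the lists named here was at 0 in all 12 libraries, but the endothelial marker Cldn5 averaged 0.083 counts and the mesenchymal marker Kcnj8 0.5 counts, and neither was tested. All 16 cell cycle genes were higher, and their summed level went from a range of 331 to 390 CPM in control to 653 to 700 CPM in mimic. In the radial glia and progenitor list, which contains Slc1a3 and Fabp7, 8 of 14 genes were higher and 1 lower, with sums of 4157 to 4383 CPM and 5589 to 5905 CPM. Most of the rise of these sums came from Slc1a3, itself a member, and Ptprz1. Their means went from 913 to 1815 CPM and from 1076 to 1597 CPM. Oligodendrocyte lineage genes had 7 of 16 higher and 1 lower, with sums of 433 to 728 CPM and 814 to 1009 CPM. Neuronal markers had 3 of 20 higher and 5 lower, and their sums, given above, overlapped between the groups. Microglial markers had none of 16 higher and 3 lower at an edgeR adjusted p under 0.05, with overlapping sums of 35.7 to 41.7 CPM and 32.6 to 66.5 CPM. Ependymal, endothelial and mesenchymal markers had 10 of 12, 2 of 9 and 4 of 11 tested genes lower and 0, 0 and 1 higher.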

How the data were processed

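RNA from 6 control and 6 mimic cultures was sequenced as poly(A) libraries. Per the submitters' processing notes the authors used FastQC 0.11.5, STAR 2.5.2b on mm10 and featureCounts of Subread 1.5.1. The deposited values used are raw counts per Ensembl gene. The TruSeq kit used does not mark strand, and neither the annotation nor the strand setting of the counting is given in the sources used here. The authors' table of scaled counts was not used.

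Symbols, coordinates, exon lengths and UTRs came from GENCODE M21 (GRCm38, the build of mm10), which named 48349 of 48709 genes, and the mature microRNA from RefSeq (GRCm38.p6). Testing required 5 or more counts in 6 or more samples, as in the study. The test was edgeR's quasi-likelihood F-test (version 4.0.16, TMM, robust, no covariate, R 4.3.3). The SE is the log2 fold change divided by the square root of F. CPM use TMM-scaled totals. Levels between genes are per kilobase of exons. Depth was 20018234 to 37149112 counts. The fit was tested on simulated data. Replicate pairs differed by more than sampling noise. The chi-square per degree of freedom ran from 1.61 to 32.7 in control pairs and from 1.9 to 7.77 in mimic pairs.

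Members, roles and lists were chosen with earlier results of these data known. All members are named, in full the 4 called genes per role with the largest change and 6 defining markers, and of other lists at most 2 genes a direction and Gfap. The 6 ratios were chosen after seeing the data. DESeq2 1.42.0, other scalings and filters, a minimum fold, the replicate block and leaving out libraries were alternatives.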

Additional observations from a re-analysis of the deposited data

Results flagged for a closer look

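For each member and group, the distance of the highest and lowest library from its neighbour was divided by the whole range and compared with Dixon's 95% limit. Among the 92 groups of values examined, 10 gaps passed, where chance flags about 1 in 20, which is 4.6. Of the 10, 8 belonged to control 1. In 7 of these control 1 was the highest control library, with 6.36 CPM in Slc7a10 (next 3.18), 134 in Hepacam (next 112), 140 in Acsbg1 (next 113), 549 in Ndrg2 (next 437), 1132 in Sparcl1 (next 1015), 526 in Mfge8 (next 400) and 6.56 in Lcat (next 4.88). In Chrdl1 it was the lowest with 14.4 CPM (next 19.97). The other 2 were mimic libraries that were highest of their group, mimic 1 with 365 CPM in Ttyh1 (next 353) and mimic 6 with 561 CPM in Glul (next 530). In the 7 genes in which control 1 was high it lay on the side of the mimic libraries, and in Chrdl1, which was lower in mimic, it lay there too. Without control 1 all 33 called members passed the test.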

How the results depend on the processing

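All 33 called members kept their direction and passed in each of 20 alternatives other than the test against a minimum fold of 1.2, which 12 of them did not pass. That test called 18 members higher and 3 lower, 683 of all tested genes higher and 352 lower, and 12 other astrocyte genes higher and 2 lower. Leaving out 1 library gave 28 to 31 members higher and 5 to 6 lower, 20 to 25 other astrocyte genes higher and 6 to 7 lower, and 1874 to 2698 of all tested genes higher and 1636 to 2456 lower, the highest counts of all tested genes and of genes called higher being those without control 1. Without control 1 and control 2, 31 members and 3060 of all tested genes were higher and 6 and 2891 lower. DESeq2 called 31 members and 2343 of all tested genes higher and 5 and 2143 lower. Of the members not called, 5 passed in at least 1 alternative, namely Slc25a18, Aqp4, Acsbg1, Fabp7 and Nfia. Signs changed in members near 0 that were never called. Mlc1 was at 0.017 without control 1 and control 2, Sox9 at 0.0052 without control 1 and 0.025 without both, and Nfib at -0.0036 without control 1, -0.012 without control 2 and -0.050 without both. Without 1 library Sox9 ranged from -0.060 to 0.0052 and Nfib from -0.012 to 0.044. The cause was not tested. Upper-quartile scaling moved the split of all called genes from 51.7% to 44.0% higher and that of the members not at all (28 and 5). The 6 ratios kept their direction without any 1 library. Permutation p-values were computed for them and are not given, because the ratios were chosen on the same values.

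No label says whether same-numbered libraries of the 2 groups share more than a number. The correlations of their deviations from the group means ran from -0.080 to 0.18, which with 6 libraries a group cannot decide it. With the replicate number as a block 28 members and 1950 of all tested genes were higher and 6 and 1709 lower, with Aqp4 added (-0.17, edgeR adjusted p = 0.0451). Depth limits Gjb6 and Etnppl, with 15.1 and 8.5 counts per library.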
